A study of Homo sapiens with 36 samples.

Results

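Mitochondrial ribosomal protein mRNAs, which the nucleus encodes and the cytosol translates, were followed through total RNA and polysome fractions of 4 lines of MDA-MB-231, an established human cell line from a breast cancer that lacks hormone receptors and HER2. Members were all gene symbols made of MRPL or MRPS, a number and at most a closing letter A, B or C, and 77 of the 26485 symbols counted met that rule. Of these, 50 belong to the large subunit, among them MRPS18A and MRPS30, whose names say otherwise, and 27 to the small subunit. A bacterial homologue is known for 48, and 29 are particular to mitochondria. Counts ran above 0 in every library for 76 members, and MRPL23, with 0 to 4 counts per library, was the 1 member not tested in any comparison. Positions of 20 members overlap another counted gene, MRPL24, MRPL34, MRPL36, MRPS6, MRPS16, MRPS24 and MRPS25 among them. Since the strand setting of the counting is not given in the sources used here, it is not known whether reads of such pairs were told apart.

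Mitochondrial ribosomes translate the few proteins that mitochondrial DNA encodes, all of them subunits of the respiratory chain and ATP synthase. Their proteins are made on cytosolic ribosomes, imported and assembled on mitochondrial rRNA, so each mRNA studied here is a client of the cytosolic tRNA pool. Cytosolic ribosomal protein mRNAs carry a 5′ terminal pyrimidine tract that ties their translation to growth signals, a feature that does not define the mitochondrial set.

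The UAU line carried CRISPR interference (CRISPRi) against eGFP and overexpressed tRNAIleUAU. The GAUi line carried CRISPRi against Ile GAU and the control overexpression construct. The isoswitch line had both changes, CRISPRi against Ile GAU and overexpressed tRNAIleUAU. The control line had CRISPRi against eGFP and the control construct, so a CRISPRi machinery and an overexpression construct were present in all 4 lines. The labels do not say whether a line was a single clone or a pool. Each combination of changes was present in a single line, so a tRNA change cannot be told apart from other differences between lines. All cells received 100 ug/mL cycloheximide for 5 minutes before lysis. From each line came total RNA (input), a low-translating fraction (80S and the 1st polysome peak) and a high-translating fraction of heavier polysomes, with 3 replicates lettered A, B and C for each of the 12 groups. The 36 libraries held 5192464 to 8974001 counts each. The libraries were primed at the polyadenylated 3′ end, and tRNA levels were not analysed here.

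VIM, CD44 and S100A4, present in MDA-MB-231, stood at 2749 to 3720, 303 to 386 and 177 to 948 CPM in total RNA, and ESR1, PGR, CDH1 and the leukocyte marker PTPRC stayed under 1 CPM in every total RNA library. The epithelial marker EPCAM stood at 10.8 to 17.7 CPM, the endothelial marker PECAM1 at 1.77 to 4.57 CPM, and the fibroblast marker DCN had no count in total RNA. Values are CPM scaled with trimmed mean factors, and every level is therefore a share of its own library, not an amount per cell. Nothing in the labels says that the 3 replicates of a group were separate cultures, so p-values measure the spread between these samples, which may be technical. Standing furthest apart from group mates over all genes were total RNA of GAUi replicate A and the low fraction of control replicate B. Chi-square per degree of freedom was 12.04 and 22.3 for the first against its mates, with 8.01 between GAUi B and C. For the second it was 12.8 and 14.7, against 2.76 between control A and C. The high fraction of UAU replicate C stood apart less (5.05 and 8.49, against 2.39 between A and B). So did the low fraction of UAU replicate A (6.54 and 8.72, against 3.32 between B and C).

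GABP, YY1 and NRF1 are transcription factors known to bind promoters of nuclear genes for mitochondrial proteins. In RefSeq promoter windows of GRCh38.p14, 69 members had 85 windows of 300 bases, and both strands of the whole windows were searched. The ETS letters bound by GABP, CCGGAAG, were found in 37.6% of member windows, in 34.2% of 79 windows of cytosolic ribosomal protein genes and in 10.3% of all 35116 windows. YY1's AAGATGGCG was found in 15.3% of member windows, 6.33% of cytosolic ribosomal protein windows and 1.75% of all windows. The NRF1 half-site GCATGCGC was found in 7.06%, 3.797% and 3.05% of the same 3 sets. The 4 sequences below are the first 280 bases of such windows, of members on which the results turn, 3 of them on chromosome 7. They run 5′ to 3′ along the gene from 250 bases before the start to 30 bases from it (MRPS33 at chr7:141014923-141015202, minus strand; MRPS17 at chr7:55951627-55951906, plus strand; MRPS24 at chr7:43869488-43869767, minus strand; MRPL33 at chr2:27771469-27771748, plus strand), and capitals mark an ETS match in MRPS33 (read on the other strand) and MRPL33 and the YY1 match in MRPS24, while MRPS17 held none of the 3 motifs here.
MRPS33: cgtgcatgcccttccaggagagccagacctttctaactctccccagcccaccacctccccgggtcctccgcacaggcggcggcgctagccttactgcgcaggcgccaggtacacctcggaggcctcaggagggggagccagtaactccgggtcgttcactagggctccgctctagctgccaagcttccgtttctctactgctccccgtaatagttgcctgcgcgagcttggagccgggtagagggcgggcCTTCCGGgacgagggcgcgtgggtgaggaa
MRPS17: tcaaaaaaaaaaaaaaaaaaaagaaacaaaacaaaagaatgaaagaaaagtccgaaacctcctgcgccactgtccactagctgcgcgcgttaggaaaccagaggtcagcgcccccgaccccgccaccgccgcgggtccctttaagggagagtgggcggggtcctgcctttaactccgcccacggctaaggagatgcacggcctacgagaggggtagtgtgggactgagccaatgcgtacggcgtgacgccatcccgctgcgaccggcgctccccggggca
MRPS24: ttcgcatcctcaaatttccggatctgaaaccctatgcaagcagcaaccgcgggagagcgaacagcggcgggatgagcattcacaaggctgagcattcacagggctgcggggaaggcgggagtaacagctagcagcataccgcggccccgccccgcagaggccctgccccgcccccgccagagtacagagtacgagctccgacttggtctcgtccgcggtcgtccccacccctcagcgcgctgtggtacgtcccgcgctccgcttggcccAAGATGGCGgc
MRPL33: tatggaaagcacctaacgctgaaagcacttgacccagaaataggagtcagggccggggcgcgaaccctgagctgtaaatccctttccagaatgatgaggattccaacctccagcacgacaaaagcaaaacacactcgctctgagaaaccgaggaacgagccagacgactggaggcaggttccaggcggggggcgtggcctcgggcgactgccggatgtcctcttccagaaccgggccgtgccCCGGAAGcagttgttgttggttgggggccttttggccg

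The mitochondrial ribosomal protein mRNAs took a larger share of the high fraction than of the low fraction in every line. Summed over members, they made up 10458 to 11085 CPM of the high fraction in UAU, 10492 to 10810 in GAUi, 9271 to 9657 in isoswitch and 9579 to 10008 in control. In the low fraction the same sums were 6251 to 6483 CPM in UAU, 6315 to 6702 in GAUi, 6642 to 6897 in isoswitch and 6577 to 7027 in control. Total RNA lay close to the low fraction, at 6976 to 7039 CPM in UAU, 7243 to 7748 in GAUi, 6988 to 7243 in isoswitch and 7189 to 7414 in control. No high-fraction library overlapped any low-fraction or total RNA library in this sum.

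In the control line, the first question was how the members distribute between the high and the low fraction. Of 76 members tested, 55 were higher in the high than in the low fraction, 8 were lower and 13 did not pass the test (edgeR's quasi-likelihood test, adjusted p under 0.05 over all 12266 genes tested). Over all genes 66.0% were called, 32.8% higher and 33.2% lower. The median log2 fold change was 0.77 over members and -0.01 over all genes tested. Both subunits shared the direction, with 36 of 49 large and 19 of 27 small subunit members higher.

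The strongest rises, those of MRPL28, MRPL15, MRPL16, MRPL19 and MRPL24, belonged to conserved proteins of the large subunit. Among all tested members, 35 of 47 with a bacterial homologue and 20 of 29 without were higher. MRPL28 had 30.7, 36.7 and 36.5 CPM in the control high fraction, against 6.58, 8.09 and 7.55 CPM in the control low fraction (log2 fold change 2.15, SE 0.15, adjusted p = 8.19e-09). MRPL15 had 113, 106 and 120 CPM in the high fraction, against 27.2, 30.04 and 28.8 CPM in the low fraction (1.91, SE 0.09, adjusted p = 1.82e-10). For both, every high library stood several-fold above every low one. MRPL16 (log2 fold change 1.83), MRPL19 (1.69), MRPL24 (1.63), MRPL27 (1.39) and MRPL3, the homologue of a bacterial protein near the peptidyl transferase center (1.38), rose too. So did MRPL38, which has no bacterial homologue (1.34). In the small subunit, MRPS23 (1.59) and MRPS25 (1.52), both without a bacterial homologue, led.

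MRPL33, one of the smallest proteins of the large subunit, went the other way. It had 118, 110 and 104 CPM in the control high fraction, against 286, 285 and 336 CPM in the control low fraction (log2 fold change -1.52, SE 0.10, adjusted p = 6.02e-09). The groups did not overlap, and MRPL33 had the lowest high-to-low difference of all 77 members in each of the 4 lines. MRPS36, since assigned to the 2-oxoglutarate dehydrogenase complex (-0.64), MRPS10 (-0.59), MRPL57 (-0.54), MRPL20 (-0.52), MRPS33 (-0.28) and MRPL11, which sits at the base of the ribosomal stalk (-0.25), were lower as well. Set against total RNA instead, MRPL33 stayed lower and MRPS36 lost its call (adjusted p = 0.18). The sign of the log2 fold change turned there for MRPS10 (0.21), MRPL57 (0.22), MRPL20 (0.02), MRPS33 (0.13) and MRPL11 (0.25). For MRPL20 that left no detectable difference (adjusted p = 0.89). MRPL11 also lost its call without control high replicate B (adjusted p = 0.104), with no filter on low counts and in a fit on the 2 fractions only (adjusted p up to 0.148 over its alternatives). MRPS33 lost its call with no filter on low counts.

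Other members described whatever their values were higher in the high fraction. MRPS12, in the decoding center of the small subunit, had a log2 fold change of 0.74 (adjusted p = 3.71e-05), MRPS22 of 0.60 (adjusted p = 0.00423), and MRPL44, an RNase III-like protein of the large subunit, of 0.82 (adjusted p = 0.00106). MRPL12, the stalk protein also reported to bind the mitochondrial RNA polymerase, reached 0.57 (adjusted p = 0.000255). Of the 3 paralogues of bacterial S18, MRPS18A rose by 1.25, MRPS18B by 1.33 and MRPS18C by 0.46, all of them called. MRPS30 rose by 0.54 (adjusted p = 0.01).

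**Figure D1:**
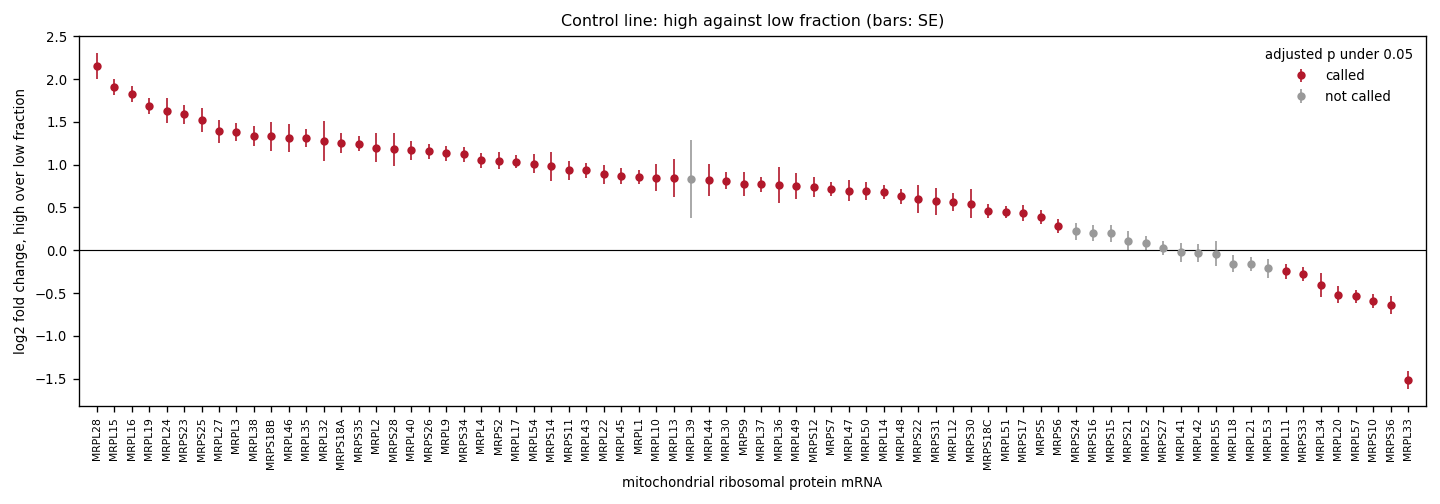
The 76 tested members are ordered along the x axis by their log2 fold change of the high over the low fraction in the control line (y axis, log2; points, estimates; bars, SE; red, adjusted p under 0.05). MRPL28 stands highest at 2.15 and MRPL33 lowest at -1.52, apart from the next member at -0.64.

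In all 4 lines most members were richer in the high than in the low fraction. The median high-minus-low difference of log2 CPM over the 77 members was 0.92 in UAU, 0.91 in GAUi, 0.87 in isoswitch and 0.84 in control. The difference was above 0 for 71 members in UAU, 68 in GAUi, 64 in isoswitch and 66 in control. These counts include the untested MRPL23, which lay above 0 in each line with only 0 to 4 counts per library.

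Many members differed from control in the high fraction of UAU, the line with overexpressed tRNAIleUAU and CRISPRi against eGFP. In UAU against control, 31 members rose, 8 fell and 37 did not pass the test, where 28.7% of all 11979 genes were called, 13.1% higher and 15.5% lower. The members' median log2 fold change was 0.15, and that of all genes -0.00. With library totals in place of trimmed mean factors the split became 22 higher and 13 lower.

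The rise took in 20 members of the large and 11 of the small subunit. MRPL33 had 172, 200 and 149 CPM in UAU, against 118, 110 and 104 CPM in control (log2 fold change 0.66, SE 0.13, adjusted p = 0.000365). MRPL20, a conserved large subunit protein, had 303, 317 and 306 CPM in UAU, against 198, 205 and 223 CPM in control (0.58, SE 0.08, adjusted p = 1.25e-05). MRPL12 had 161, 149 and 160 CPM in UAU, against 107, 101 and 122 CPM in control (0.53, SE 0.11, adjusted p = 0.000488). For all 3 genes each UAU library stood above each control library. MRPS6 (log2 fold change 0.55), MRPL36 (0.52), MRPL34 (0.49), MRPS14 (0.48), MRPL57 (0.43), MRPL50 (0.39), MRPS16 (0.37) and MRPL11 (0.30, adjusted p = 0.00767) rose too. MRPL50 lost its call without UAU replicate B (adjusted p = 0.0546).

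Of the 8 members that fell in UAU, 5 belong to the small subunit. MRPS9, a conserved protein of the small subunit head, had 20.9, 21.4 and 28.7 CPM in UAU, against 42.5, 38.3 and 41.95 CPM in control (log2 fold change -0.76, SE 0.12, adjusted p = 4.85e-05). MRPS18B had 150, 163 and 227 CPM in UAU, against 270, 255 and 286 CPM in control (-0.56, SE 0.11, adjusted p = 0.000333). MRPS31, a small subunit protein without a bacterial homologue, had 16.6, 21 and 21.2 CPM in UAU, against 31.99, 29.5 and 25.2 CPM in control (-0.56, SE 0.12, adjusted p = 0.00139). The groups did not overlap, although UAU replicate C stood nearest to control for MRPS9 and MRPS18B. MRPL1 (-0.45), MRPS35 (-0.43), MRPL48 (-0.39), the pentatricopeptide repeat protein MRPS27 (-0.38) and MRPS30 (-0.61, adjusted p = 0.00582) completed the 8, and MRPS30 overlapped with control. Of the other members described whatever their values, MRPS18C rose by 0.25 (adjusted p = 0.0141), and MRPL3 (-0.04), MRPL44 (-0.36), MRPS12 (0.20), MRPS18A (0.02) and MRPS22 (-0.30) did not pass the test.

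In the same fraction, 14 members differed from control in GAUi, the line with CRISPRi against Ile GAU and the control construct. In GAUi against control, 13 members rose and 1 fell, where 10.1% of all genes were called, 4.66% higher and 5.48% lower. The members' median log2 fold change was 0.13, and 7 rose and 2 fell with library totals alone. MRPS21, a conserved small subunit protein, had 67.9, 73.1 and 72.3 CPM in GAUi, against 48.2, 49.6 and 55.2 CPM in control (log2 fold change 0.49, SE 0.09, adjusted p = 0.00103). MRPS18C had 307, 311 and 309 CPM in GAUi, against 236, 231 and 233 CPM in control (0.41, SE 0.08, adjusted p = 0.000898). The libraries of the 2 lines did not overlap for either gene. MRPL33 (0.50) and MRPL57 (0.41) rose as well, and the 1 member that fell was MRPS33 (-0.32). The count dropped to 3 without GAUi replicate A, to 4 without control replicate A and to 8 without control replicate B. MRPL33 lost its call without GAUi replicate A (adjusted p = 0.0765), and MRPS33 without GAUi replicate A or B or control replicate A or B (adjusted p up to 0.153).

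In isoswitch, the line with both changes, 11.8% of members were called in the high fraction, near the share of all genes. In isoswitch against control, 2 members rose and 7 fell, where 11% of all genes were called, and 3 rose and 5 fell with library totals alone. MRPS31 had 40.3, 37.4 and 36.8 CPM in isoswitch, against 31.99, 29.5 and 25.2 CPM in control (log2 fold change 0.38, SE 0.11, adjusted p = 0.0294), and MRPS21 was the other member that rose (0.31). The 4 that fell outside chromosome 7 were MRPL41 (-0.36), MRPL12 (-0.34, adjusted p = 0.0396), MRPL53 (-0.31) and MRPL11 (-0.27, adjusted p = 0.0385). MRPL12 had 75.1, 90.2 and 96.8 CPM in isoswitch, against 107, 101 and 122 CPM in control, with no overlap. The count fell to 3 without isoswitch replicate A, to 5 without control replicate A and to 4 without control replicate C. MRPS31, MRPS21 and MRPL41 each lost their call without isoswitch replicate A or other single libraries (adjusted p up to 0.135, 0.123 and 0.0953).

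**Figure D2:**
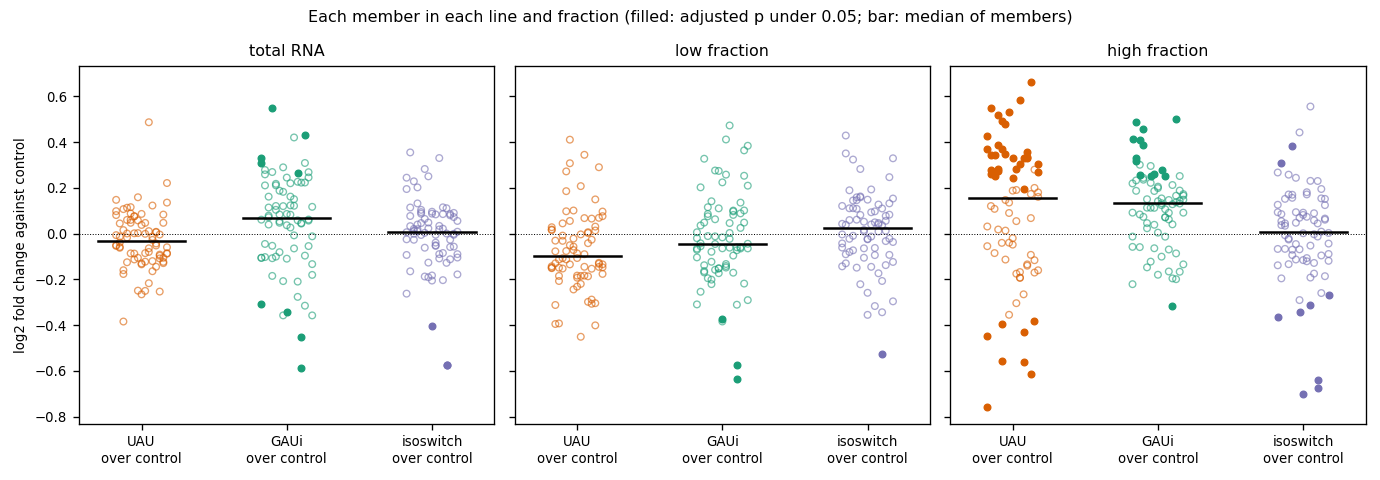
Each point is 1 of 76 members, with its log2 fold change against control on the y axis (log2) in total RNA, the low fraction and the high fraction for UAU, GAUi and isoswitch. Filled points passed adjusted p under 0.05 and bars are the members' median, which lies at 0.15 in UAU and 0.13 in GAUi in the high fraction.

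In total RNA and in the low fraction, the share of members called lay near that of all genes in each line. In UAU total RNA no member passed edgeR's test, where 0.914% of all 12357 genes did, 6 members had an unadjusted p under 0.05, and DESeq2 called 0. The smallest p-values belonged to MRPL27 (log2 fold change -0.27, adjusted p = 0.17), MRPL38 (-0.38, adjusted p = 0.184) and MRPL39 (0.49, adjusted p = 0.271). In the UAU low fraction no member passed edgeR's test either, where 0.691% of all 12445 genes did, 8 members had an unadjusted p under 0.05, and DESeq2 called 1. MRPL51 (-0.30, adjusted p = 0.0899), MRPL40 (-0.45) and MRPL21 (-0.31) had the smallest p-values there. There, 1 member was called without control replicate B. So the 39 calls of UAU in the high fraction stand beside none in the other 2, and the difference between fractions is tested as the high-to-low ratio below.

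In GAUi total RNA, 5 members rose and 4 fell, where 10.1% of all genes were called. MRPL36 had 39.4, 45.9 and 38.8 CPM in GAUi, against 28.7, 31.3 and 24.8 CPM in control (log2 fold change 0.55, SE 0.11, adjusted p = 0.00451). Every GAUi library lay above every control library for this short protein, whose gene overlaps NDUFS6. In a fit on the 2 groups compared only, MRPL36 lost its call (adjusted p = 0.0537), and so did MRPL24, MRPL57, MRPS23, MRPS24 and MRPS30 (adjusted p up to 0.149). MRPS30 (0.43), MRPL57 (0.33), MRPS23 (0.31) and MRPL51 (0.26, adjusted p = 0.0406) rose, and MRPL24 (-0.31) fell together with 3 members on chromosome 7. The count was 16 without GAUi replicate A, the library that stood apart, and 5, 3 and 4 without control replicates A, B and C. Among the single genes, MRPS30, MRPL57, MRPS23 and MRPL24 each lost their call without at least 1 control replicate (adjusted p up to 0.131, 0.0765, 0.11 and 0.0944), and MRPS30 also without GAUi replicate A.

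The members that fell in both lines with CRISPRi against Ile GAU shared a chromosome. MRPS33, a small subunit protein of mitochondria (chr7:141002610-141014952), MRPS17, homologous to a bacterial protein of the small subunit (chr7:55951877-55956500), and MRPS24, the counterpart of bacterial S3 (chr7:43866558-43869517), lie on chromosome 7 with MRPL32 (chr7:42932376-42937857), a large subunit protein matured by the m-AAA protease. Positions are those of GRCh38.p14, and MRPS24 shares its place with the counted gene URGCP-MRPS24.

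In total RNA, MRPS33 had 56.3, 52.2 and 52.1 CPM in GAUi and 50.2, 53.6 and 56.1 CPM in isoswitch, against 80.3, 77.9 and 83.1 CPM in control. Both lines lay wholly below control (log2 fold change -0.59 in GAUi, SE 0.09, adjusted p = 0.00032, and -0.58 in isoswitch, SE 0.09, adjusted p = 0.00051). MRPS17 had 51.2, 53.3 and 49.4 CPM in GAUi and 47.3, 48.6 and 43.5 CPM in isoswitch, against 68.2, 70.2 and 71.7 CPM in control (-0.45, adjusted p = 0.00258, and -0.57, adjusted p = 0.000569). MRPS24 had 205, 162 and 185 CPM in GAUi and 181, 170 and 171 CPM in isoswitch, against 223, 236 and 240 CPM in control (-0.35, adjusted p = 0.0188, and -0.41, adjusted p = 0.0129). All 3 were therefore lower than control without overlap. MRPS24 lost its call without control replicate B or C in either line and without isoswitch replicate B or C (adjusted p up to 0.0726 in GAUi and 0.0768 in isoswitch). MRPL32 had 49.6, 49.6 and 31.7 CPM in GAUi and 39.7, 40.3 and 40.6 CPM in isoswitch, against 48.6, 47.5 and 43.1 CPM in control, and did not pass the test (-0.08 and -0.19). In UAU, which lacks the CRISPRi against Ile GAU, MRPS33 had 74.8, 77.5 and 75.7 CPM, and none of the 4 members on chromosome 7 passed the test in total RNA (-0.05 for MRPS33, -0.15 for MRPS17, -0.13 for MRPS24, 0.08 for MRPL32).

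These 3 were all the members called in isoswitch total RNA, where 4.05% of all genes were called. They were also all the members called in the GAUi low fraction, where 3.40% of all genes were called, with log2 fold changes of -0.64 for MRPS33, -0.58 for MRPS17 and -0.37 for MRPS24. MRPS33 alone was called in the isoswitch low fraction (-0.53, adjusted p = 0.00306), where 2.58% of all genes were called, with MRPS17 at -0.34 (adjusted p = 0.0849) and MRPS24 at -0.26 (adjusted p = 0.192). Without control low replicate B, the library that stood apart, 6 members were called in GAUi and 4 in isoswitch, and 2 in isoswitch without control low replicate A. MRPS24 lost its call in the GAUi low fraction without any 1 of the GAUi replicates or without control replicate B or C (adjusted p up to 0.173), and also under the replicate block and in a fit on the 2 groups compared only. In the high fraction of isoswitch, MRPS24 had 211, 247 and 233 CPM, against 343, 345 and 430 CPM in control (-0.70, SE 0.09, adjusted p = 6.23e-06), MRPS17 reached -0.68 and MRPS33 -0.64. In the high fraction of GAUi the same genes stood at -0.18 (adjusted p = 0.2), -0.20 (adjusted p = 0.206) and -0.32 (adjusted p = 0.0337). In the high fraction of UAU all 3 were higher than control, with MRPS24 at 0.24 (adjusted p = 0.0389), MRPS17 at 0.33 (adjusted p = 0.0102) and MRPS33 at 0.36 (adjusted p = 0.0052).

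**Figure D3:**
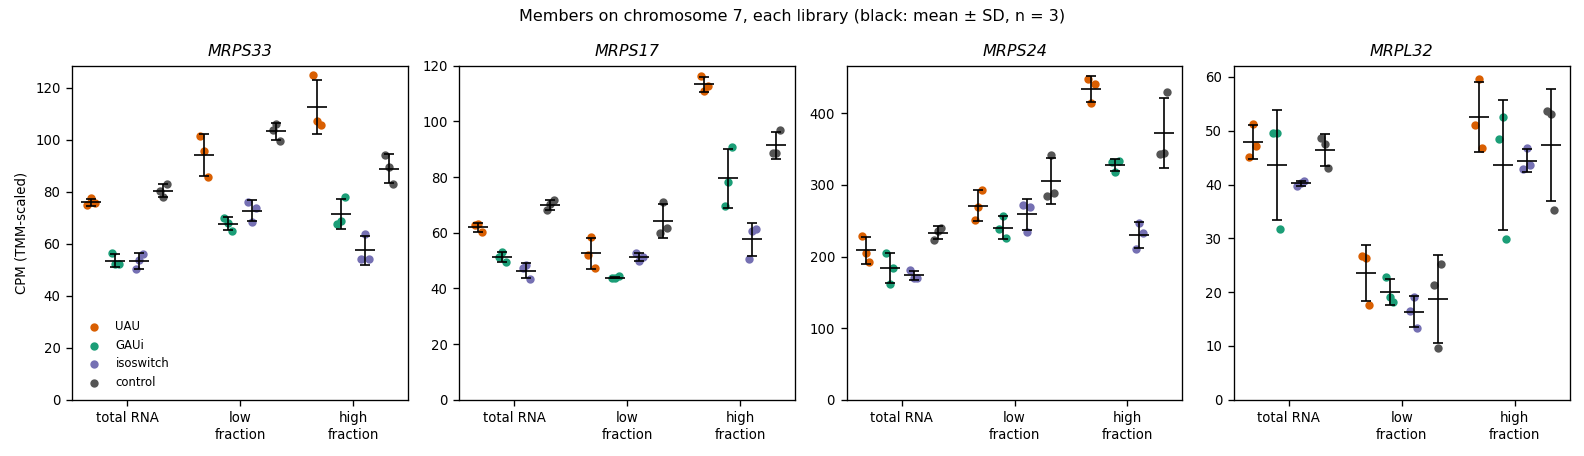
Each point is 1 library of UAU, GAUi, isoswitch or control (y axis, CPM from 0) in total RNA, the low and the high fraction for the 4 members on chromosome 7, with the mean and SD of n = 3 in black. MRPS33 in total RNA lies at 50.2 to 56.3 CPM in GAUi and isoswitch, below the 77.9 to 83.1 CPM of control.

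Chromosome 7 as a whole was lower in the same lines. Over all 586 genes of chromosome 7 tested in total RNA, the median log2 fold change was -0.40 in GAUi and -0.39 in isoswitch, while the other 22 chromosomes had medians of -0.04 to 0.07 in GAUi and -0.02 to 0.06 in isoswitch. In GAUi total RNA, 240 genes of chromosome 7 fell (41.0%), against 3.95% of genes elsewhere, and in isoswitch total RNA 205 fell (34.98%), against 1.13% elsewhere. The shift was there in the high fraction (-0.39 in GAUi, -0.43 in isoswitch) and in the low fraction (-0.36 in GAUi, -0.37 in isoswitch). In UAU the chromosome's median was -0.01 in total RNA, -0.03 in the high fraction and -0.00 in the low fraction. Cut into 8 stretches of 20 Mb, chromosome 7 was low throughout, with medians from -0.46 to -0.34 in GAUi and from -0.48 to -0.35 in isoswitch total RNA.

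The number of copies of chromosome 7 in each line was not measured, and its part in these values was not tested. Of the 72 tested members on other chromosomes, edgeR called 5 higher and 1 lower in GAUi total RNA (8.33%, against 10.1% of all genes). In isoswitch total RNA and in the low fraction of both lines, each member that edgeR called lay on chromosome 7, while DESeq2 called 4, 5 and 2 members in all in isoswitch total RNA, the GAUi low fraction and the isoswitch low fraction. In the high fraction, 13 of the 72 rose in GAUi, and 2 rose and 4 fell in isoswitch.

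**Figure D4:**
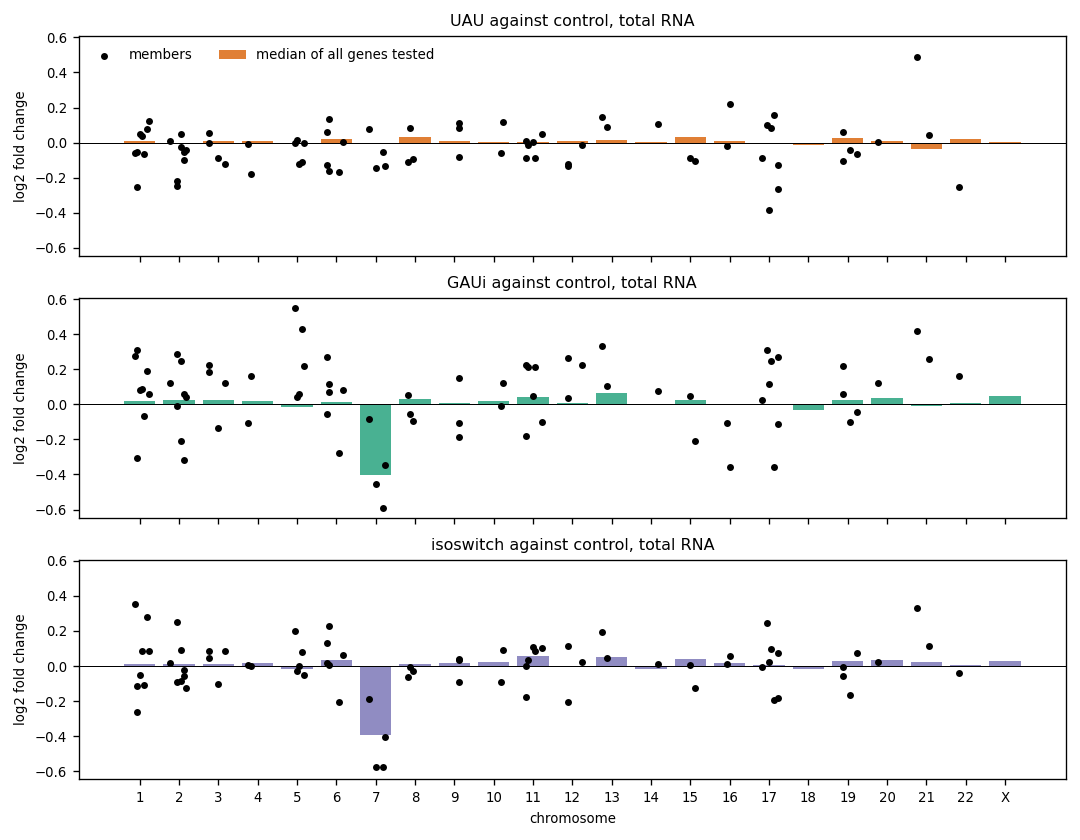
Bars give the median log2 fold change against control of all genes tested on each chromosome (x axis) in total RNA, and dots the members, for UAU, GAUi and isoswitch. The bar of chromosome 7 lies at -0.40 in GAUi and -0.39 in isoswitch and at -0.01 in UAU, while no other bar passes 0.07 in size.

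The test of the high-to-low ratio asked whether members were distributed between the low and the high fraction differently in a line than in control. In UAU, 18 members shifted to the high fraction and 3 to the low fraction, where 6.53% of all 12749 genes were called, and the members' median difference in log2 ratio was 0.28. MRPL20 had the largest rise (0.78, SE 0.13, adjusted p = 0.000799), with 303, 317 and 306 CPM in the high and 242, 262 and 262 CPM in the low fraction of UAU, against 198, 205 and 223 CPM in the high and 245, 318 and 293 CPM in the low fraction of control. In UAU every high library of MRPL20 exceeded every low one, and in control every low library exceeded every high one. MRPS21 (0.66), MRPS17 (0.65), MRPL21 (0.60), MRPS6 (0.58), MRPL57 (0.58), MRPL41 (0.53), MRPS33 (0.52), MRPL51 (0.50) and MRPL11 (0.49) shifted the same way. MRPS31 (-0.82, SE 0.20, adjusted p = 0.0108), MRPS9 (-0.77, SE 0.20, adjusted p = 0.0183) and MRPL1, of the mobile stalk of the large subunit (-0.46), shifted to the low fraction. DESeq2 called 32 members in this comparison and a fit on UAU and control alone called 7. The count was 12 without UAU high replicate A, 11 without UAU high replicate B, 13 without UAU low replicate B and 12 without control high replicate A. MRPS31 and MRPS9 lost their call without UAU high replicate A or control high replicate A (adjusted p up to 0.0531 and 0.0723), MRPS9 also without UAU high replicate B or control low replicate C, and MRPL1 lost it without any 1 of 8 libraries (adjusted p up to 0.137). MRPS33 lost its call without UAU high replicate A (adjusted p = 0.0696), and MRPS21 and MRPL41 without UAU low replicate B (adjusted p = 0.0539 and 0.0585). Set against total RNA instead of the low fraction, MRPL21, MRPL57, MRPL41, MRPS21 and MRPL1 lost their call (adjusted p up to 0.0655, 0.0808, 0.14, 0.129 and 0.137 over all alternatives). In the fit on UAU and control alone, MRPL11 (adjusted p up to 0.083 over all alternatives), MRPL41, MRPS21, MRPS33, MRPS9 and MRPL1 lost theirs, as MRPL11, MRPL41 and MRPL1 did under the replicate block and MRPL1 with RLE size factors.

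MRPS18C was the single member whose ratio differed in GAUi (0.55, SE 0.12, adjusted p = 0.0352), where 0.196% of all genes were called and the members' median was 0.20. DESeq2 called 9 members here, and library totals alone called 0. The call of MRPS18C was lost without GAUi high or low replicate A or C or without control high or low replicate C (adjusted p up to 0.178), and 3 members were called without control low replicate B. In isoswitch edgeR called no member, where 0.00784% of all genes were called, DESeq2 called 1 and 11 members had an unadjusted p under 0.05. MRPS24 (-0.42, adjusted p = 0.205), MRPS10 (0.32, adjusted p = 0.274) and MRPS25 (-0.42, adjusted p = 0.295) had the smallest p-values, and 4 members were called without control low replicate B.

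In the high fraction, the change that went with tRNAIleUAU overexpression differed between lines with and without CRISPRi against Ile GAU. The interaction, the change in isoswitch over GAUi minus the change in UAU over control, was called for 52 members, 11 higher and 41 lower, where 35.7% of all genes were called, 18.1% higher and 17.6% lower. Its median was -0.40 over members and -0.01 over all genes. With library totals alone 16 were higher and 28 lower, a setting that moved the median of all genes by 0.17. In the small subunit 23 of 27 members were called, in the large subunit 29 of 49.

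MRPL33 had the lowest interaction (-1.42, SE 0.18, adjusted p = 1.53e-06). Its high-fraction level was 68.7, 119 and 91.6 CPM in isoswitch, against 169, 149 and 151 CPM in GAUi, and 172, 200 and 149 CPM in UAU, against 118, 110 and 104 CPM in control. The overexpression thus went with less MRPL33 alongside CRISPRi against Ile GAU and with more MRPL33 without it, with no overlap in either pair. MRPL12 (-1.06, SE 0.15, adjusted p = 6.21e-06), MRPL20 (-1.03, SE 0.12, adjusted p = 3.95e-07) and MRPL57 (-0.91) followed the same pattern. MRPL20 had 173, 191 and 187 CPM in isoswitch, against 253, 224 and 267 CPM in GAUi, and 303, 317 and 306 CPM in UAU, against 198, 205 and 223 CPM in control. MRPL11 (-0.72), MRPS12 (-0.57), MRPS18A (-0.39) and MRPS18C (-0.63) were called lower too.

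The 4 members with the highest interaction were MRPS31, MRPS9, MRPS30 and MRPL44. MRPS31 (1.09, SE 0.17, adjusted p = 1.97e-05) had 40.3, 37.4 and 36.8 CPM in isoswitch, against 24.1, 27.3 and 27.4 CPM in GAUi, and 16.6, 21 and 21.2 CPM in UAU, against 31.99, 29.5 and 25.2 CPM in control. MRPS9 (1.07, SE 0.17, adjusted p = 1.78e-05) had 46.2, 41.7 and 43.8 CPM in isoswitch, against 38.8, 33.5 and 32.8 CPM in GAUi, and 20.9, 21.4 and 28.7 CPM in UAU, against 42.5, 38.3 and 41.95 CPM in control. For both genes every isoswitch library lay above every GAUi library, and every UAU library below every control library. MRPS30 (1.01), MRPL44 (0.86), MRPS22 (0.59) and MRPS18B (0.55) were called higher, and MRPL3 did not differ detectably (-0.00, SE 0.12, adjusted p = 0.986).

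**Figure D5:**
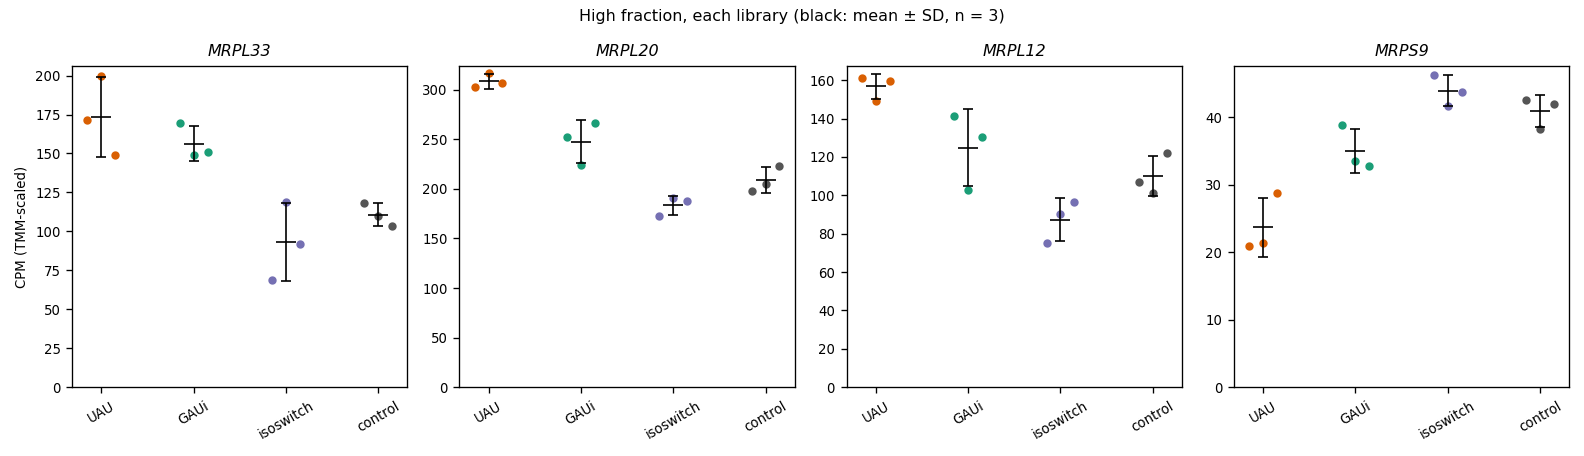
Each point is 1 high-fraction library (y axis, CPM from 0) of UAU, GAUi, isoswitch or control for MRPL33, MRPL20, MRPL12 and MRPS9, with the mean and SD of n = 3 in black. MRPL33, MRPL20 and MRPL12 have their highest mean in UAU and their lowest in isoswitch, and MRPS9 is lowest in UAU, at 20.9 to 28.7 CPM.

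Cytosolic ribosomal protein mRNAs and nuclear-encoded respiratory chain mRNAs are the sets most like the members. Between the fractions of control, 29 of 79 cytosolic ribosomal protein mRNAs were higher in the high fraction and 22 lower (median log2 fold change 0.07), and 45 of 82 respiratory chain mRNAs were higher and 22 lower (0.48), beside 55 and 8 of the 76 members (0.77). In the high fraction of UAU, 41 cytosolic ribosomal protein mRNAs rose and 4 fell, and 51 respiratory chain mRNAs rose and 11 fell. In that of GAUi, 47 rose and 0 fell, and 17 rose and 4 fell. In the UAU high-to-low ratio, 20 cytosolic ribosomal protein mRNAs were called higher and 1 lower (median 0.29). There, 41 respiratory chain mRNAs were called higher and 2 lower (0.48), beside 18 and 3 of the members (0.28). In the interaction, 4 cytosolic ribosomal protein mRNAs were called higher and 54 lower, and 13 respiratory chain mRNAs higher and 54 lower. For comparison, 66.0% of all genes were called between the control fractions, 28.7% in the UAU high fraction and 10.1% in the GAUi high fraction. For the UAU ratio the share of all genes was 6.53%, and for the interaction 35.7%. No test compared the sets.

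Genes of the mitochondrial translation pathway outside the members were called in both directions. Among all genes, 32.8% were higher and 33.2% lower in the control high fraction, and 13.1% rose and 15.5% fell in the UAU high fraction. Shares called among assembly and rRNA modification genes, 73.1% and 23.1%, lay near those of all genes, 66.0% and 28.7%. Of 16 translation factors, 7 were higher and 4 lower in the control high fraction, led by TUFM, the mitochondrial elongation factor Tu (log2 fold change 1.52), and in the UAU high fraction 2 rose and 4 fell, among them SLIRP, an RNA-binding protein (0.47), OXA1L, the membrane insertase (-0.70), and the elongation factors GFM1 (-0.64) and GFM2 (-0.37). Of 26 assembly and rRNA modification genes, 14 were higher and 5 lower in the control high fraction, and 2 rose and 4 fell in the UAU high fraction. Of 6 mitochondrial ribosomal proteins named otherwise, 3 were higher and 2 lower in the control high fraction, with PTCD3 at -1.45 and DAP3 at -1.27, and 3 rose in UAU. Of 9 genes of mitochondrial DNA transcription, 2 were higher and 1 lower in the control high fraction, and 3 fell in the UAU high fraction, TFAM among them (-0.32). Of 12 biogenesis regulators, 4 were higher and 1 lower in the control high fraction, and 1 rose and 2 fell in the UAU high fraction.

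Outside the members, genes on chromosome 7 also fell in the lines with CRISPRi against Ile GAU. SSBP1, which coats single-stranded mitochondrial DNA, changed by -0.54 in GAUi total RNA (adjusted p = 0.00108) and by -0.51 in isoswitch total RNA (adjusted p = 0.00286). NDUFA5, of respiratory complex I, changed by -0.75 and -0.76 there, and NDUFB2, of the same complex, by -0.42 and -0.55. MALSU1, an assembly factor of the large subunit, fell in isoswitch total RNA (-0.39, adjusted p = 0.0176), and FTSJ2, a methyltransferase of mitochondrial rRNA, in GAUi total RNA (-0.43, adjusted p = 0.0212).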

How the data were processed

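The authors deposited raw counts per gene symbol for each of 36 libraries, made per the labels' protocols with the Lexogen QuantSeq 3' kit from 500 ng RNA. STAR, featureCounts, DESeq2 and the build hg38 are named in the submitters' processing notes, with versions, annotation and strand setting not given in the sources used here. No row without a gene name entered a library total. Groups were taken from the labels' CRISPRi target, overexpression construct and fraction.

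From these counts, 14 comparisons were made with edgeR 4.0.16 in R 4.3.3 (filterByExpr, TMM factors, glmQLFit and glmQLFTest), with Benjamini-Hochberg adjustment over all genes tested and calls at adjusted p under 0.05. Line comparisons used all 12 libraries of a fraction, the control fractions all 3 fractions of control, and ratios all 24 libraries of the high and low fractions. Levels are CPM with TMM factors over all 36 libraries, and per-member differences of log2 CPM used a prior count of 2. The procedure was tested on simulated data for some of the comparisons, with the same spread set for every gene and no library standing apart. That test therefore does not measure the error of the calls in these data. With library totals of 5192464 to 8974001 counts, low members are the least precise.

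Of called members, those named were the 10 at either end by log2 fold change in 3 comparisons (high against low in control, UAU in the high fraction, the UAU ratio) and the 4 at either end in the others, provided that average log2 CPM was 3 or more and, between groups, no overlap of replicates. Where none was called, the 3 smallest p-values were named. MRPL12, MRPL11, MRPL3, MRPL44, MRPS12, MRPS18A, MRPS18B, MRPS18C, MRPS22 and MRPS30 were always described, and values of MRPL53, MRPL51 and of called members to complete a count were added after they were seen. Members and gene lists were chosen with earlier results of these data known. Positions and promoters came from RefSeq (GRCh38.p14), matched by symbol, and all 77 members had a position, MRPS36 under a synonym. DESeq2 1.42.0, other scaling, no filter, fits on fewer libraries, a letter block and leaving out each replicate were the alternatives. Same-lettered samples did not deviate together, with a correlation over 0.1 in 7 of 36 pairs of fractions and 8 of 54 pairs of lines, so letters were not used to pair samples. Protein lengths and isoleucine content of the members were not analysed here.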

Additional observations from a re-analysis of the deposited data

Results flagged for a closer look

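In the high fraction, the change that went with tRNAIleUAU overexpression was tested for a difference between lines with and without CRISPRi against Ile GAU. Of 76 members, 52 passed that test with edgeR, where 35.7% of all 11979 genes did. The difference was above 0 for MRPS31 (1.09 on the log2 scale), MRPS9 (1.07), MRPS30 (1.01) and MRPL44 (0.86). It was below 0 for MRPL33 (-1.42), MRPL12 (-1.06), MRPL20 (-1.03) and MRPL57 (-0.91).

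The high-to-low ratio was tested for a difference between a line and control, which 21 members passed in UAU, where 6.53% of all 12749 genes did, and 1 in GAUi, where 0.196% did. In UAU the log2 ratio was higher for MRPL20 (0.78), MRPS21 (0.66), MRPS17 (0.65), MRPL21 (0.60), MRPS6 (0.58), MRPL57 (0.58), MRPL41 (0.53), MRPS33 (0.52), MRPL51 (0.50) and MRPL11 (0.49). It was lower for MRPS31 (-0.82), MRPS9 (-0.77) and MRPL1 (-0.46). In GAUi the member was MRPS18C (0.55).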

How the results depend on the processing

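Counts of members called moved by over 1.5 times under these settings. A fit on the groups compared alone called 4 members in UAU total RNA, 2 in GAUi total RNA and 13 in isoswitch total RNA, against 0, 9 and 3 as reported, and 7 and 0 for the UAU and GAUi ratios, against 21 and 1. Library totals alone called 9 in the GAUi high fraction and 0 for the GAUi ratio. DESeq2 called 1, 5 and 2 members in the low fraction of UAU, GAUi and isoswitch, and 32, 9 and 1 for the ratios of UAU, GAUi and isoswitch. No filter on low counts called 2 in the isoswitch low fraction. A replicate block of letters called 10 members for the UAU ratio and 0 for the GAUi ratio and moved no other count by over 1.5 times, though letters do not pair these samples. The cause of these moves was not tested.

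Leaving out each replicate in turn gave 61 to 67 members between the control fractions. In total RNA it gave 0 to 0 in UAU, 3 to 16 in GAUi and 2 to 3 in isoswitch. In the high fraction it gave 29 to 45, 3 to 10 and 3 to 8, and in the low fraction 0 to 1, 2 to 6 and 1 to 4. For the ratios it gave 11 to 24, 0 to 3 and 0 to 4, and for the interaction 51 to 56.

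With total RNA instead of the low fraction the sign turned for MRPS10 (0.21), MRPL57 (0.22), MRPL20 (0.018), MRPS33 (0.13) and MRPL11 (0.25) between the control fractions. MRPL20 did not differ detectably there (adjusted p = 0.89). The sign also turned for MRPS25 in the isoswitch ratio (0.00199), where no member was called. MRPS24 lost its call in isoswitch total RNA without isoswitch replicate B or C or control B or C. MRPS33 kept its call in both lines in total RNA and the low fraction, and in the isoswitch high fraction, under all 12 alternatives. The interaction kept its calls of MRPL33, MRPL12, MRPL20, MRPL57, MRPS31, MRPS9, MRPS30 and MRPL44 under all 17 alternatives, which were not run for the other members given as called in it. MRPS18C lost its call in the GAUi ratio under 10 of 19 alternatives. Low counts limit precision, and MRPL39 had 42, 3 and 52 counts in the control low fraction, the 3 in replicate B, the library that stood apart.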
